A study of Homo sapiens with 6 samples.

Results

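The transcripts of 41 genes that carry out DNA replication and mitosis were compared between control A431 cells (A431CT) and A431 cells with CRISPR/Cas9 knockout of DSG2 (Dsg2KO), with 3 libraries in each group. The members were chosen by name, and all 41 were found among the 21462 gene symbols of the count table. They were split into 17 S phase genes, which act from the licensing of origins through DNA synthesis, and 24 mitotic genes. Most of the mitotic genes act from G2 through chromosome segregation, and the class also holds the proliferation markers MKI67 and TOP2A. A431 is a human keratinocyte line from an epidermoid carcinoma. Both groups were grown in the same serum-containing medium, with no treatment named, and the genotype was given as WT in A431CT and as DSG2 KO in Dsg2KO. Whether the knockout line was 1 clone is not given in the sources used here, so the effect of the edit and differences between the lines that arose otherwise cannot be told apart.

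The cell cycle is driven by cyclins that switch on kinases in turn. Cyclin E and the E2F factors open S phase, the MCM helicase unwinds DNA at licensed origins, and cyclin A and cyclin B with CDK1 bring cells into mitosis. The spindle checkpoint then holds back the anaphase-promoting complex (APC/C) until every chromosome is attached. Many of these genes are transcribed in waves, the S phase genes through E2F sites and the mitotic genes through CCAAT boxes and a cell cycle homology region (CHR) that FOXM1, B-MYB and the DREAM complex act on. Basal keratinocytes are the dividing layer of the epidermis, and Dsg2 is a desmosomal cadherin of undifferentiated keratinocytes.

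Of these promoter motifs, CHR and E2F-like sites were found in different shares of the S phase and mitotic members, and CCAAT was found in most promoters of both. RefSeq promoters (GRCh38.p14), each running from 250 bases before to 50 bases after the gene start, were matched for 33 of the 41 members, 14 S phase and 19 mitotic. Those not matched were CCNE2, MCM4, MCM5, UBE2C, AURKA, TPX2, FOXM1 and BIRC5. Of the mitotic members that passed the adjusted p-value below, promoters were thus matched for only 2 lower ones and 1 higher one. The CHR motif, searched as TTTGAA on both strands, was in 11 of 19 mitotic promoters (57.9%) and in 1 of 14 S phase promoters (7.14%), against 9.71% of the 10035 promoters of tested genes. The E2F-like motif, searched as TTTNNCGC, was in 10 of 14 S phase promoters (71.4%) and in 1 of 19 mitotic promoters (5.26%), against 10.6% of tested genes. CCAAT was in 64.3% of S phase and 73.7% of mitotic promoters, against 36.7% of tested genes. Matches of different motifs overlapped each other in 2 cases. These matches are letters in a window, not bound sites.

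The stretch from 150 bases before to 20 bases after the start is printed for 4 members whose transcripts are contrasted below, read on the strand of the gene, with all 3 motifs in capitals. CDC20 (chr1:43358831-43359000, plus strand) and PLK1 (chr16:23678739-23678908, plus strand) both hold CCAAT and CHR, although only the CDC20 transcript fell. MCM3 (chr6:52284723-52284892, minus strand) and CCNE1 (chr19:29811841-29812010, plus strand) are the S phase genes with the smallest p-values. MCM3 holds 2 E2F-like and 2 CCAAT matches in this stretch, and CCNE1 holds none of these letters.

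CDC20: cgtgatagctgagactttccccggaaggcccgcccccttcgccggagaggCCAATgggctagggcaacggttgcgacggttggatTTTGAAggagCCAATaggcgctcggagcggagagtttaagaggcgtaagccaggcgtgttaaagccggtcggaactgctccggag

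PLK1: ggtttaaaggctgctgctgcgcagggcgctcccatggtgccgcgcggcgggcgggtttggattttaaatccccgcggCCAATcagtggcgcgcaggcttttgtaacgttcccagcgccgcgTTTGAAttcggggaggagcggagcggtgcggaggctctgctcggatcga

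MCM3: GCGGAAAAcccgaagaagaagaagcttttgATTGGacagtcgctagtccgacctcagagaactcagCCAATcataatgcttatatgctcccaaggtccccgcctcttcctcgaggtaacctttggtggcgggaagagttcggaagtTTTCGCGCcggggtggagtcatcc

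CCNE1: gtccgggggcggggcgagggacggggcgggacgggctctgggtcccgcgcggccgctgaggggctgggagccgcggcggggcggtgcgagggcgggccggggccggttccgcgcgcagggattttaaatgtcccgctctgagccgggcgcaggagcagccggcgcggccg

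The libraries held between 12845719 and 16255692 counts, and those of Dsg2KO were the deeper. DSG2 was at 330.0, 320.3 and 319 CPM (counts scaled to library size with TMM factors) in A431CT and at 50.9, 55.2 and 49.7 CPM in Dsg2KO, so that 16.1% of the control level remained. Of the 8 keratinocyte markers, KRT5, TP63, CDH1, EGFR, SFN and KRT18 were above 200 CPM in every library, KRT17 was between 11.1 and 13.8 CPM and KRT14 between 0 and 0.155 CPM. CDH1, EGFR and KRT18 were higher in Dsg2KO (log2 fold changes of 0.28, 0.11 and 0.35) and SFN and KRT5 lower (-0.46 and -0.13). The fibroblast markers COL1A2, DCN, LUM, PDGFRB and THY1 were at most at 0.295 CPM, with COL1A2 at 0. Of the leukocyte markers CD3E was at 0, PTPRC and CD14 were at most at 0.612 CPM, and LYZ was at 1.89 to 2.25 CPM in A431CT and 2.48 to 4.08 CPM in Dsg2KO. The endothelial markers CDH5 and PECAM1 were higher in Dsg2KO, at 7.91 to 8.20 and 5.87 to 5.99 CPM against 3.80 to 5.23 and 3.33 to 5.03 CPM, and VWF was at 1.10 to 1.54 CPM. The part of these markers in the results was not tested. All 41 members passed the low-count filter, with at least 76 counts in every library. In these bulk samples a smaller share of cells in a phase and less RNA per cell cannot be told apart.

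Most replication and mitosis genes were at nearly the same level in A431CT and Dsg2KO cells. By edgeR's adjusted p-value alone (under 0.05), 4 of the 17 S phase genes were higher in Dsg2KO and 3 were lower, and 10 did not pass. Of the 24 mitotic genes 2 were higher and 5 lower, and 17 did not pass. Over all 12857 genes tested, 14.3% passed as higher and 15.3% as lower. The members' shares were 23.5% higher and 17.6% lower for S phase genes and 8.33% higher and 20.8% lower for mitotic genes, so that neither class stood far from the background. With the fold change minimum of 0.5 on the log2 scale added, CCNE1 alone of the 41 members passed (2.44%), where 6.03% of all tested genes did. The split between directions depended on the scaling. With library totals in place of TMM factors, 5 S phase genes were higher and 1 lower, and 5 mitotic genes were higher and 3 lower. Single libraries moved these counts too. The lower S phase genes numbered 0 by edgeR's adjusted p-value without A431CT replicate 3 or Dsg2KO replicate 1 (2 and 3 at an unadjusted p under 0.05) and 1 without A431CT replicate 1 or Dsg2KO replicate 3, and the higher ones numbered 2 without A431CT replicate 1 or Dsg2KO replicate 2. The lower mitotic genes numbered 3 without A431CT replicate 1 or Dsg2KO replicate 1 or 2, and the higher ones numbered 4 without A431CT replicate 3 and 1 without Dsg2KO replicate 2.

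The median log2 fold change (Dsg2KO over A431CT) was 0.03 for the S phase genes and 0.02 for the mitotic genes, against -0.0048 over all genes tested. The S phase members ranged from -0.19 to 0.70 and the mitotic members from -0.44 to 0.17. All 3 Dsg2KO libraries lay above all 3 A431CT libraries for 4 S phase and 5 mitotic genes, and below them for 4 and 6 genes, which is 21.95% and 24.4% of the members. Over all tested genes these shares were 21.2% and 21.4%.

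**Figure D1:**
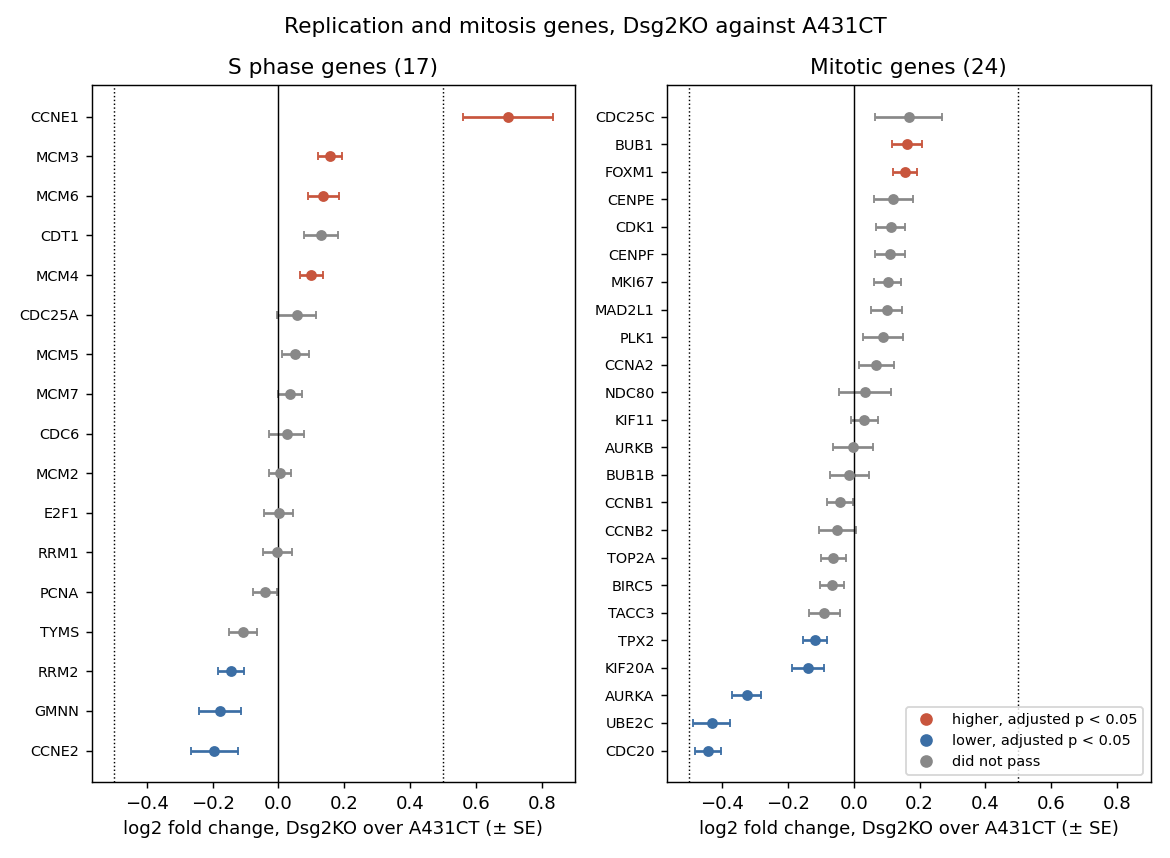
Log2 fold change of Dsg2KO over A431CT (x axis, ± SE, 3 libraries per group) for the 17 S phase genes and the 24 mitotic genes (y axis, ordered by value), coloured by edgeR's adjusted p-value, with dotted lines at the fold change minimum of 0.5 in either direction. CCNE1 stands alone beyond the line at 0.70, and CDC20, UBE2C and AURKA form the lower end of the mitotic genes, between -0.44 and -0.33.

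Among the genes of origin licensing and S phase entry, CCNE1 rose in every fit, and the lower values of CCNE2 and GMNN passed in few of them. CCNE1 encodes cyclin E1, which activates CDK2 at the start of S phase. It was at 5.98, 6.27 and 6.90 CPM in A431CT and at 10.7, 9.79 and 10.6 CPM in Dsg2KO. The groups did not overlap, and the level in Dsg2KO was 162% of that in A431CT. CCNE1 rose by 0.70 on the log2 scale (standard error 0.14, edgeR adjusted p = 0.00131), on raw counts of 76 to 172 per library. CCNE2 encodes the related cyclin E2. Its libraries were at 36.0, 32.7 and 37.9 CPM in A431CT and at 30.8, 30.9 and 31.5 CPM in Dsg2KO, again without overlap. CCNE2 fell by 0.19 (standard error 0.07, edgeR adjusted p = 0.0499), and kept that call in 3 of the 13 other fits.

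Per kilobase of annotated exon, CCNE1 was the most weakly expressed member in A431CT, with 2.59 CPM per kilobase against 8.09 for CCNE2. In Dsg2KO these levels were 4.21 and 7.06 CPM per kilobase. The ratio of CCNE1 to CCNE2 counts was 0.166, 0.191 and 0.182 in the A431CT libraries and 0.346, 0.317 and 0.338 in the Dsg2KO libraries. The ratio was thus higher in every Dsg2KO library, 1.86 times on average. The ratios of 7 gene pairs were chosen after their values were seen and were not tested. No share of ratios without overlap was taken over other gene pairs, so the lack of overlap is only a description. Those of RRM2 to RRM1 and of CCNB1 to CDK1 were lower in every Dsg2KO library, 0.904 and 0.898 times the A431CT mean. That of AURKB to BIRC5 was the 1 that overlapped between the groups (0.164, 0.168 and 0.147 against 0.178, 0.163 and 0.160).

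CDT1 loads the MCM helicase onto origins, and geminin, encoded by GMNN, blocks CDT1 after S phase has begun. GMNN was at 47.7, 42.7 and 44.04 CPM in A431CT and at 39.5, 40.98 and 38.3 CPM in Dsg2KO. It fell by 0.18 (standard error 0.06, edgeR adjusted p = 0.0490), with no overlap between the groups. CDT1 was at 93.0, 101 and 104 CPM in A431CT and at 112, 111 and 103 CPM in Dsg2KO. The groups overlapped and CDT1 did not pass (log2 fold change 0.13, standard error 0.05, edgeR adjusted p = 0.0752). The ratio of CDT1 to GMNN counts was 1.95, 2.37 and 2.36 in A431CT and 2.83, 2.71 and 2.69 in Dsg2KO, so that every Dsg2KO library was the higher.

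E2F1, the transcription factor that drives many S phase genes, was level. Its libraries were at 127, 119 and 126 CPM in A431CT and at 126, 126 and 121 CPM in Dsg2KO, with a log2 fold change of 0.0014 and a 95% interval from -0.09 to 0.09. The licensing factor CDC6 and the phosphatase CDC25A, which activates CDK2, did not pass either, with log2 fold changes of 0.03 and 0.06 and intervals from -0.09 to 0.14 and from -0.07 to 0.18.

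The 6 subunits of the MCM helicase all had fold changes above 0, as 49.1% of all tested genes did, and 3 of them passed as higher, where 14.3% of all tested genes did. The sign of MCM2 changed in 2 of the 13 other fits, and MCM4 lost its call in 6. MCM3 was at 309.5, 296 and 304 CPM in A431CT and at 342, 341 and 329.8 CPM in Dsg2KO. It rose by 0.16 (standard error 0.04, edgeR adjusted p = 0.00456), and the groups did not overlap. MCM6 was at 161, 160.1 and 149 CPM in A431CT and at 165, 182 and 171 CPM in Dsg2KO. MCM4 was at 459.5, 439.7 and 452 CPM in A431CT and at 469, 497 and 483 CPM in Dsg2KO. Both rose without overlap, by 0.14 (standard error 0.05, edgeR adjusted p = 0.0413) and 0.10 (standard error 0.04, edgeR adjusted p = 0.0449).

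The other MCM subunits overlapped between the groups and did not pass. MCM2 was at 546, 529.6 and 560.1 CPM in A431CT and at 543, 553 and 544 CPM in Dsg2KO. MCM5 was at 138, 139.6 and 146 CPM against 149, 147 and 143 CPM, and MCM7 at 494, 472 and 492 CPM against 495, 518 and 480.5 CPM. Their log2 fold changes were 0.0039 for MCM2, 0.05 for MCM5 and 0.04 for MCM7, with upper interval bounds of 0.08, 0.14 and 0.12. The Dsg2KO levels of MCM3, MCM4 and MCM6 were 111%, 107% and 109.9% of those in A431CT.

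PCNA, the sliding clamp of the replicative polymerases, had the highest level of all members per kilobase of exon (251 CPM per kilobase in A431CT). Its libraries were at 363, 343 and 351 CPM in A431CT and at 342, 344 and 341 CPM in Dsg2KO, with a log2 fold change of -0.04 and a 95% interval from -0.12 to 0.04. All 3 genes of nucleotide supply had fold changes below 0, where 49.1% of all tested genes were above 0. The sign of RRM1 changed in 7 of the 13 other fits. Only RRM2 passed as lower, where 15.3% of all tested genes did. RRM2, the regulated small subunit of ribonucleotide reductase, was at 364, 358 and 386 CPM in A431CT and at 324, 339 and 339 CPM in Dsg2KO. It fell by 0.14 (standard error 0.04, edgeR adjusted p = 0.0115) without overlap. The large subunit RRM1 had a log2 fold change of -0.0031, with an interval from -0.10 to 0.09. TYMS, which makes thymidylate, had a log2 fold change of -0.11 and did not pass (edgeR adjusted p = 0.0746), although its groups did not overlap.

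Several S phase calls depended on single libraries or on the settings, while CCNE1 and MCM3 passed in each of the 13 other fits. RRM2 lost its call without A431CT replicate 3 or Dsg2KO replicate 1 (log2 fold changes of -0.11 and -0.12), and MCM6 without A431CT replicate 1 or 3 or Dsg2KO replicate 2 or 3 (0.16, 0.10, 0.10 and 0.14). MCM4 kept its call only without Dsg2KO replicate 1 among the fits that left out a library (0.08 to 0.12 in the others), and GMNN and CCNE2 kept theirs only without A431CT replicate 2. GMNN was between -0.13 and -0.20 and CCNE2 between -0.15 and -0.20 in the 5 fits that lost the call. Both also lost the call with RLE factors, library totals, either other low-count filter and DESeq2 (adjusted p = 0.125 and 0.131 with DESeq2), at log2 fold changes of -0.15 to -0.17 for GMNN and -0.17 to -0.19 for CCNE2. In all, GMNN lost its call in 11 of the 13 fits and CCNE2 in 10.

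**Figure D2:**
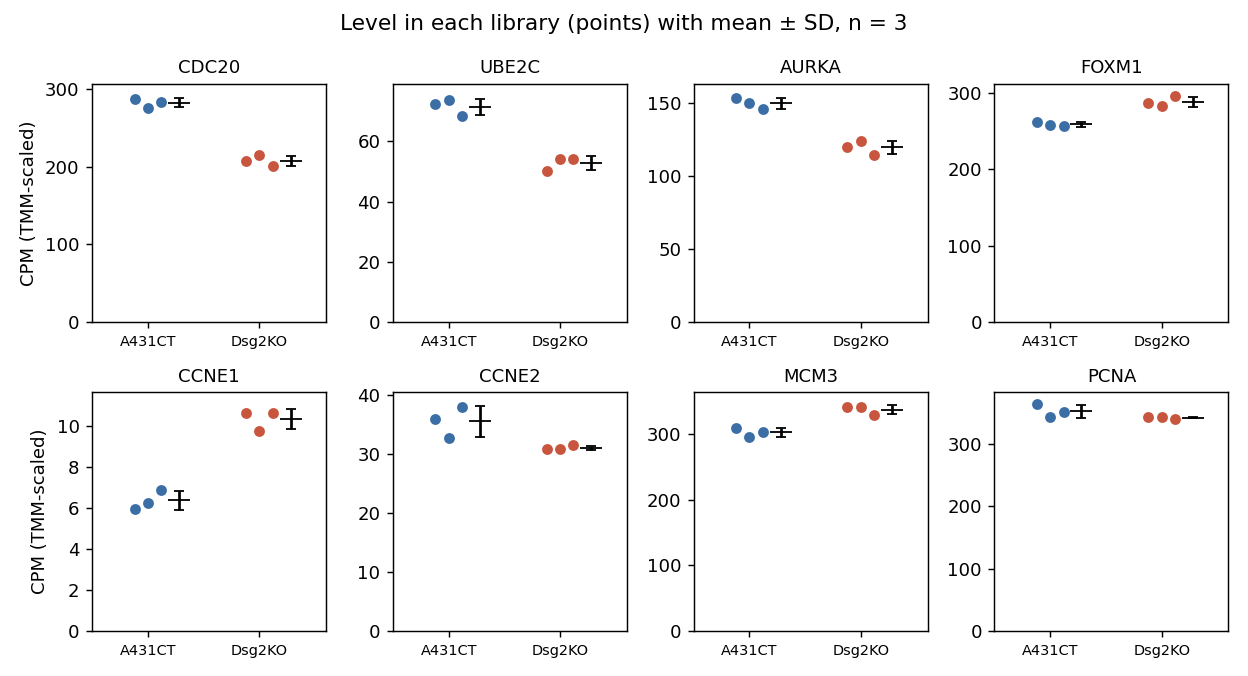
Level in CPM (y axis, from 0) of 8 members in each library (points) of A431CT and Dsg2KO (x axis), with the mean ± SD of 3 libraries beside them. The Dsg2KO libraries lie below the A431CT libraries for CDC20, UBE2C, AURKA and CCNE2 and above them for FOXM1, CCNE1 and MCM3, while those of PCNA overlap.

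Among the mitotic genes, the clearest differences were in CDC20, UBE2C and AURKA. CDC20 activates the APC/C at anaphase and lies on chromosome 1 from 43358981 to 43363203 (GRCh38). It was at 287, 276 and 284 CPM in A431CT and at 207, 214 and 201 CPM in Dsg2KO, where 73.5% of the A431CT level remained. The groups did not overlap, and CDC20 fell by 0.44 (standard error 0.04, edgeR adjusted p = 1.16e-06). UBE2C, the ubiquitin-conjugating enzyme that works with the APC/C, lies on chromosome 20 from 45812576 to 45816957. It was at 72.3, 73.7 and 68.3 CPM in A431CT and at 50.3, 54.2 and 54.3 CPM in Dsg2KO, or 74.1% of the A431CT level. It fell by 0.43 (standard error 0.06, edgeR adjusted p = 3.69e-05).

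AURKA, the Aurora A kinase of centrosomes and spindle poles, lies on chromosome 20 from 56369389 to 56392337. It was at 153, 150.04 and 146 CPM in A431CT and at 120.0, 124 and 115 CPM in Dsg2KO, without overlap. AURKA fell by 0.33 (standard error 0.04, edgeR adjusted p = 5.29e-05), to 79.8% of the A431CT level. TPX2, which activates Aurora A on the spindle, was at 378, 369 and 388 CPM in A431CT and at 343, 352 and 352 CPM in Dsg2KO. It fell by 0.12 (standard error 0.04, edgeR adjusted p = 0.0214). The kinesin KIF20A, which acts in cytokinesis, was at 109, 102 and 97.7 CPM in A431CT and at 92.2, 92.7 and 94.7 CPM in Dsg2KO. It fell by 0.14 (standard error 0.05, edgeR adjusted p = 0.0413), the lowest A431CT library and the highest Dsg2KO library lying at 97.7 and 94.7 CPM.

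FOXM1 and BUB1 were the mitotic genes that rose. FOXM1, the transcription factor of the mitotic wave, was at 262, 258 and 256 CPM in A431CT and at 286, 282 and 295 CPM in Dsg2KO. It rose by 0.15 (standard error 0.04, edgeR adjusted p = 0.00497). BUB1, a kinase of the spindle checkpoint, was at 98.1, 96.6 and 96.4 CPM in A431CT and at 104, 112 and 110.2 CPM in Dsg2KO. It rose by 0.16 (standard error 0.05, edgeR adjusted p = 0.0137), and neither gene overlapped between the groups.

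The proliferation markers did not pass. MKI67, which encodes the Ki-67 protein, was at 706, 686 and 765 CPM in A431CT and at 779.6, 747 and 788 CPM in Dsg2KO. The groups overlapped, and the log2 fold change was 0.10 (standard error 0.04, edgeR adjusted p = 0.0685). TOP2A, the topoisomerase that untangles sister chromatids, was at 603, 551 and 578 CPM in A431CT and at 562, 554 and 542 CPM in Dsg2KO. It had a log2 fold change of -0.06 and a 95% interval from -0.14 to 0.02.

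Of the cyclins that accompany CDK1, none passed. CCNB1, cyclin B1, was at 305, 288 and 303 CPM in A431CT and at 286, 299 and 285 CPM in Dsg2KO (log2 fold change -0.04, interval from -0.12 to 0.04). CCNA2 and CCNB2 had log2 fold changes of 0.07 and -0.05. CDK1 itself was at 112, 116 and 119 CPM in A431CT and at 123, 129.8 and 122 CPM in Dsg2KO, without overlap, but did not pass (log2 fold change 0.11, standard error 0.04, edgeR adjusted p = 0.0688). CDC25C, the phosphatase that activates CDK1, had a log2 fold change of 0.17 with a wide interval, from -0.05 to 0.38, on the lowest counts of the mitotic genes (184 to 298 per library).

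PLK1, AURKB and BIRC5, which encode Polo-like kinase 1, Aurora B and its partner survivin, had log2 fold changes of 0.09, -0.0012 and -0.07 and did not pass. PLK1 varied more than most members within A431CT, at 235, 192 and 231 CPM, and its interval ran from -0.04 to 0.22. AURKB was level at 60.2 CPM in both groups (SD 2.89 in A431CT and 3.97 in Dsg2KO, n = 3), with an interval from -0.13 to 0.13. The 3 Dsg2KO libraries of BIRC5 were all below those of A431CT. The difference between the changes of AURKA and AURKB was not tested.

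The checkpoint and kinetochore genes MAD2L1, BUB1B, NDC80, CENPE, CENPF and KIF11 had log2 fold changes from -0.01 for BUB1B to 0.12 for CENPE, and none passed. The Dsg2KO libraries of MAD2L1 and CENPE were all above those of A431CT. The ratio of AURKA to TPX2 counts was also lower in every Dsg2KO library, at 0.350, 0.352 and 0.326 against 0.405, 0.407 and 0.376. The ratio of CDC20 to MAD2L1, the checkpoint protein that holds CDC20 inactive, was 3.16, 3.23 and 3.14 in A431CT and 2.20, 2.31 and 2.04 in Dsg2KO. It was lower in every Dsg2KO library, 0.687 times the A431CT mean. BUB1B shares a strand and 3696 bases with PAK6, which had a log2 fold change of -0.22, so that reads at the shared end may be split between them.

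TACC3, which stabilises spindle microtubules, overlaps another gene in position. It was at 156, 164 and 156 CPM in A431CT and at 139.8, 151 and 157 CPM in Dsg2KO, and did not pass (log2 fold change -0.09, standard error 0.05, edgeR adjusted p = 0.172). On the opposite strand TMEM129 overlaps TACC3 over 5407 bases, and its counts were 0, 0 and 0 in A431CT and 182, 137 and 115 in Dsg2KO. The CPM of both genes together were 156, 164 and 156 in A431CT and 152, 159.7 and 164 in Dsg2KO. The sum was 159 ± 4.73 CPM in A431CT and 158 ± 5.90 in Dsg2KO (SD, n = 3), and its groups overlapped. Whether the counting used strand is not given in the sources used here, so the levels of TACC3 and TMEM129 cannot be told apart. FOXM1, CCNE2, KIF20A, TYMS, MCM7, CCNA2 and CDC25C also overlap genes on the opposite strand.

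CDC20, UBE2C, AURKA and FOXM1 passed in each of the 13 other fits, with log2 fold changes from -0.47 to -0.42, -0.46 to -0.40, -0.35 to -0.30 and 0.14 to 0.18. BUB1 lost its call without Dsg2KO replicate 2 (0.14), and TPX2 without A431CT replicate 1 or 3 or Dsg2KO replicate 1 or 2 (-0.12, -0.10, -0.10 and -0.12) and with library totals only (-0.09). KIF20A kept its call only without A431CT replicate 3 among the fits that left out a library (-0.10 to -0.15 in the others). KIF20A also lost its call with library totals only, without the low-count filter and with DESeq2 (-0.12, -0.13 and -0.14), so that 8 of the 13 fits lost it. Among the fits that left out a library, MKI67 and CENPF passed as higher without A431CT replicate 3 (0.15 and 0.16). CDT1 passed without A431CT replicate 3 (0.16) or Dsg2KO replicate 3 (0.17), and TYMS passed as lower without Dsg2KO replicate 2 (-0.14).

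The mitotic genes that fell most lie where neighbouring genes were lower as well. The 176 other tested genes within 10 Mb of CDC20 had a median log2 fold change of -0.28. Around UBE2C, AURKA and TPX2, all on chromosome 20, the medians were -0.15, -0.15 and -0.17 over 100 genes, 95 genes and 95 genes. After these medians were taken off, CDC20 was at -0.17, UBE2C at -0.28 and AURKA at -0.17, and TPX2 turned to 0.05. E2F1 also lies on chromosome 20, where its neighbours had a median of -0.17, and E2F1 was level. CDT1 lies on chromosome 16 among genes with a median of 0.25 and was at 0.13, or -0.12 after its removal. MCM4 lies on chromosome 8 among 51 genes with a median of 0.08, and its value went from 0.10 to 0.02 when that median was taken off. The other members that passed (CCNE1, MCM3, MCM6, FOXM1, BUB1, RRM2, GMNN, CCNE2 and KIF20A) had neighbours with medians between -0.02 and 0.06. DNA copy number was not measured, and its part in these differences was not tested.

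**Figure D3:**
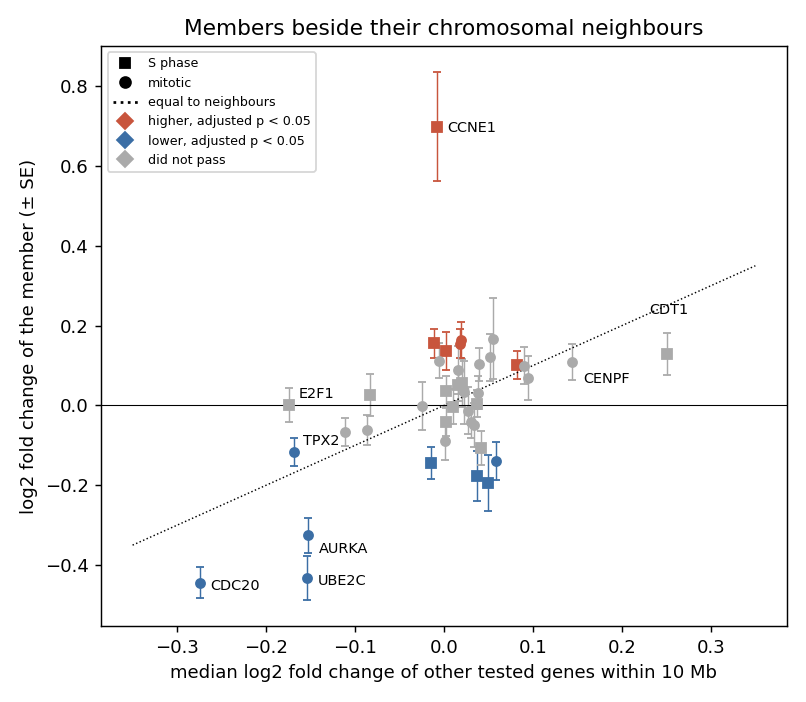
Log2 fold change of each member (y axis, ± SE) against the median log2 fold change of the other tested genes within 10 Mb on the same chromosome (x axis), with squares for S phase and circles for mitotic genes, coloured by edgeR's adjusted p-value. CDC20, UBE2C and AURKA lie below the dotted line of equal values although their neighbours were lower too, and CCNE1 lies far above its neighbours, whose median was -0.0083.

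Per library, the mean deviation of the 17 S phase genes from their A431CT mean (log2 CPM) was 0.0052, -0.03 and 0.02 in A431CT and 0.03, 0.07 and 0.02 in Dsg2KO. The groups overlapped. Without CCNE1 the values were 0.01, -0.03 and 0.02 against -0.0089, 0.04 and -0.02. For the 24 mitotic genes they were 0.03, -0.02 and -0.0054 in A431CT and -0.02, -0.01 and -0.03 in Dsg2KO, also with overlap. The mean over mitotic genes minus that over S phase genes was 0.02, 0.0058 and -0.03 in A431CT and -0.06, -0.08 and -0.05 in Dsg2KO, so that it was lower in every Dsg2KO library. The separation was lost when CCNE1 was left out. Leaving out other members, such as CDC20, UBE2C and AURKA, was not tried, so the separation cannot be assigned to CCNE1 alone. Without CCNE1 the difference was 0.02, 0.0062 and -0.02 in A431CT and -0.01, -0.05 and -0.01 in Dsg2KO, and the groups overlapped.

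**Figure D4:**
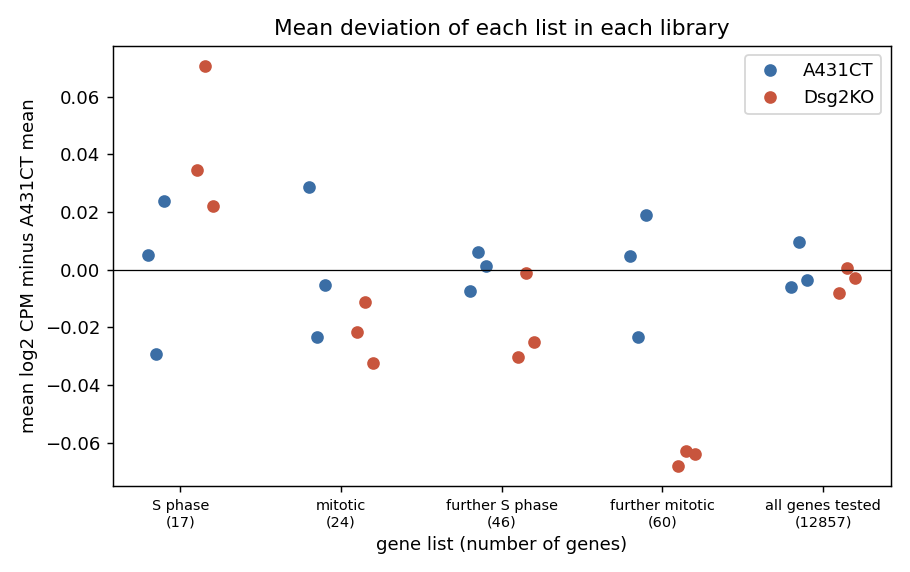
Mean over the genes of each list (x axis, number of genes in brackets) of log2 CPM minus the gene's A431CT mean (y axis), 1 point per library. The points of A431CT and Dsg2KO overlap for the S phase and mitotic members, and those of the 60 further mitotic genes lie between -0.07 and -0.06 in Dsg2KO against -0.02 to 0.02 in A431CT.

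Further genes of the same pathways were listed from general knowledge, 46 for S phase and 60 for mitosis, and all of them were tested. Earlier results of these data were known when the lists were made. Of the further mitotic genes, 4 passed as higher (6.67%, against 14.3% of all tested genes) and 17 as lower (28.3%, against 15.3%). Their median log2 fold change was -0.05. Their summed level was 6651, 6519 and 6660 CPM in A431CT and 6281, 6311 and 6288 CPM in Dsg2KO, without overlap. Without Dsg2KO replicate 1 the list had 1 gene higher and 12 lower (20%, against 11.5% of all genes then tested), and without Dsg2KO replicate 3 it had 2 higher and 14 lower (23.3%, against 12.6%). The smallest p-values among the lower ones were those of KIF2C, DEPDC1 and KIF18B, with log2 fold changes of -0.39, -0.29 and -0.24. KIF2C is a microtubule-depolymerising kinesin and KIF18B a kinesin of astral microtubules. KIF2C and DEPDC1 lie on chromosome 1 among neighbours with medians of -0.28 and -0.24, and KIF18B among neighbours at -0.10. Over all 60 further mitotic genes, the median log2 fold change was -0.0525, and it was -0.0514 after each gene's local median was taken off. The higher ones with the smallest p-values were CCNF, KNL1 and ECT2, at 0.22, 0.19 and 0.13. Their neighbours had medians of 0.007, 0.02 and 0.03. CCNF encodes cyclin F, KNL1 the kinetochore scaffold that recruits BUB1, and ECT2 an activator of RhoA in cytokinesis.

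Of the further S phase genes 3 passed as higher (6.52%) and 6 as lower (13.0%), shares below the 14.3% and 15.3% of all tested genes. The median log2 fold change of the list was 0.01, and POLE was the 1 gene past the fold change minimum. POLE, the catalytic subunit of DNA polymerase epsilon, was at 111, 119 and 118 CPM in A431CT and at 79.0, 81.9 and 80.2 CPM in Dsg2KO. It fell by 0.53 (standard error 0.05, edgeR adjusted p = 9.37e-07), among neighbours on chromosome 12 with a median of -0.44. E2F2 and RPA2, an E2F factor and a subunit of the single-strand binding protein, fell by 0.40 and 0.43 among neighbours on chromosome 1 at -0.31 each. CHAF1B, a histone chaperone of replicating chromatin, and GINS2, a subunit of the replicative helicase, rose by 0.50 and 0.48 among neighbours at 0.39 on chromosome 21 and 0.24 on chromosome 16. CDC7, the kinase that fires origins, rose by 0.20 among neighbours at 0.08 on chromosome 1. All of these named genes changed in the direction of the genes around them. They were named for their small p-values, and the share of all tested genes that did so was not taken. The part of the surrounding genes in these changes was not tested.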

How the data were processed

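PolyA RNA from A431CT and Dsg2KO cells was sequenced, with 3 libraries per group. According to the study's methods, paired-end reads were trimmed, aligned to GRCh38/hg38 and counted per gene in CLC Genomics Workbench. The authors deposited the counts as whole numbers per gene symbol, without normalization. The gene annotation and strand setting are not given in the sources used here.

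Counts were scaled with TMM factors and tested in edgeR 4.0.16 (R 4.3.3) with the quasi-likelihood F test, after filterByExpr with a minimum count of 10 and a minimum total of 15, without covariates. P-values were adjusted by Benjamini-Hochberg over all 12857 genes. The study's thresholds were used (adjusted p-value under 0.05, log2 fold change of at least 0.5 in size), and calls by adjusted p-value alone are given beside them. Standard errors and 95% intervals come from the F statistic. Log2 CPM used a prior count of 2. The study describes the libraries of each condition as biological replicates, and p-values and intervals measure the spread between them. The fit was tested on simulated data.

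All 41 members are accounted for. By the rule for named genes, values per library are given for MKI67, TOP2A, PCNA, CCNB1, CDK1, FOXM1, E2F1, the E cyclins, MCM2 to MCM7, TACC3 and every member past the adjusted p-value. From the further lists the 3 genes with the smallest p-value per direction are named. The members and lists were chosen with earlier results of these data known. Positions and exon lengths come from GENCODE version 44, which placed 12258 of the tested genes. Replicate pairs differed by more than counting error (chi-square per degree of freedom from 2.64 to 4.14). Same-numbered libraries did not deviate together (correlations from -0.0027 to 0.05), so the numbers were not used as pairs. The alternatives were RLE size factors, library totals, other low-count filters, DESeq2 1.42.0, a likelihood ratio test, each library left out, a replicate block and removal of the local median.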

Additional observations from a re-analysis of the deposited data

How the results depend on the processing

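CCNE1 was the 1 S phase gene, and no mitotic gene was, past both thresholds in all 13 other fits. The 3 lower S phase genes became 1 with RLE size factors, library totals, no low-count filter, at least 10 counts in every library, and DESeq2. With library totals the higher mitotic genes became 5 and the lower ones 3, and the mitotic median was 0.0382. Without the low-count filter 4 mitotic genes were higher. With 1 library left out, S phase genes numbered 2 to 4 higher and 0 to 3 lower, and mitotic genes 1 to 4 higher and 3 to 4 lower. The medians were then 0.0033 to 0.0603 for S phase and -0.0312 to 0.0305 for mitotic genes, so the sign of the mitotic median was not stable. The further mitotic genes, whose alternatives were chosen after seeing the data, then numbered 1 to 3 higher and 12 to 16 lower. After removal of the local median TPX2 was at 0.0508. An uncalled value changed sign in 29 gene and setting pairs, from 7 genes. With a replicate block 4 S phase genes were higher and 2 lower, and 3 mitotic genes higher and 5 lower. In it GMNN lost its call and MKI67 gained one, and 2 of the 6 libraries correlated best with their own number in the other group. For the other changes the cause was not tested. At the depth of these libraries the counts limit CCNE1 and CDC25C most.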
